A study of Mus musculus with 9 samples.

Results

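The mouse genes of the aldehyde dehydrogenase (Aldh), alcohol dehydrogenase (Adh), aldo-keto reductase (Akr1 and Akr7), flavin monooxygenase (Fmo) and aldehyde oxidase (Aox) families were followed in liver RNA. They were taken by symbol from the protein-coding genes of the GENCODE vM21 annotation, with the bile acid reductase Akr1d1 left out, which left 54 members of 56719 genes listed in each count file and of 21877 protein-coding genes among them. FMT-Con A mice (3 libraries) were gavaged for 4 weeks with a PBS suspension of faeces from Con A-treated AIH model mice, and were then injected with Con A at 10 mg/kg through the tail vein on the day of collection. Con A mice (3 libraries) had PBS during those weeks and the same injection, and WT mice (3 libraries) had PBS throughout. Con A is concanavalin A, a lectin from jack beans that activates T cells and causes acute liver injury in mice, and AIH stands for autoimmune hepatitis. The strain was C57BL/6J in all 3 groups, and the age of the mice and the hours between injection and collection are not given in the sources used here. The labels conflict on sex, with male mice in the growth protocol and female in the sample records. The Y-linked gene Ddx3y had 107 to 272 CPM (counts scaled to a common library size) in the 9 libraries, and the female-expressed Xist had 0.95 to 6.78. The mice are numbered within a group and no other label says that each library is a separate animal, so a p-value here reflects how far libraries of a group differ, which may be technical.

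These enzymes handle the carbonyl and alcohol groups that arise when a liver oxidises ethanol, retinol, amino acids, lipids, steroids and drugs. Alcohol dehydrogenases oxidise an alcohol to an aldehyde, aldehyde dehydrogenases and the molybdenum-containing aldehyde oxidases carry an aldehyde on to an acid, and aldo-keto reductases run the opposite way, reducing aldehydes and ketones with NADPH. Flavin monooxygenases add oxygen to nitrogen and sulphur atoms of drugs and dietary amines. Hepatocytes are a main site of all 5 families, many of whose genes sit side by side on a chromosome as products of gene duplication.

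The starts of 5 members picked by hand are shown: Aldh18a1, Fmo4, Adh7, Aox3 and Akr1b10. Aldh18a1 was higher after Con A, and Fmo4 and Adh7 were among the largest falls. Akr1b10 was lower in Con A than in WT, and higher in FMT-Con A than in Con A. Each line is a RefSeq window of 300 bases on GRCm38.p6, 250 before and 50 after the annotated start, written 5′ to 3′ on the gene's strand. Capitals mark the dioxin response element core GCGTG or its complement CACGC, the D-box core TTANNTAA bound by PAR bZIP factors, and the nuclear receptor motif AGGTCA or its complement TGACCT.
Aldh18a1 (chr19:40588414-40588713, - strand): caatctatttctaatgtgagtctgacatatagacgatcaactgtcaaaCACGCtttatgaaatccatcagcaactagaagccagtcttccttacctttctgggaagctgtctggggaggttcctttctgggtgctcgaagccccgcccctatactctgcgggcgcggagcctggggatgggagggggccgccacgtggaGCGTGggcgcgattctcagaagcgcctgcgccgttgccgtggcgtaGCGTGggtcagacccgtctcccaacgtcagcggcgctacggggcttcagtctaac
Adh7 (chr3:138217523-138217822, + strand): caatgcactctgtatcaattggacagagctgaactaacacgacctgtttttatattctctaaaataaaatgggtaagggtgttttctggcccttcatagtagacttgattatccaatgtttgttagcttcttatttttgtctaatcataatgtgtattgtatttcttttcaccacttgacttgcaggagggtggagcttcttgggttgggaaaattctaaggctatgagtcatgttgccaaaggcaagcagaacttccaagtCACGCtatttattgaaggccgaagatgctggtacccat
Aox3 (chr1:58112886-58113185, + strand): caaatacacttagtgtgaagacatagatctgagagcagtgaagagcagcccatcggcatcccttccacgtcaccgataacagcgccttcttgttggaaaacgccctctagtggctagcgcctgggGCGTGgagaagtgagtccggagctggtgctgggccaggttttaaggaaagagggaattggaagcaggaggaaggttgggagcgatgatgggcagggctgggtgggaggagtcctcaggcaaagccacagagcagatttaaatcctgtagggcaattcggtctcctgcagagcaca
Fmo4 (chr1:162812500-162812799, - strand): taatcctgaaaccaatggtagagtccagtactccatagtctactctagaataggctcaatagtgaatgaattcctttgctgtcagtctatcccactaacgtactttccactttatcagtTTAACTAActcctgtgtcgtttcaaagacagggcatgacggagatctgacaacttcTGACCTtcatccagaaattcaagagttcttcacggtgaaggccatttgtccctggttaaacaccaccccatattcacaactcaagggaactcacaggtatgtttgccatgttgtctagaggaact
Akr1b10 (chr6:34383997-34384296, + strand): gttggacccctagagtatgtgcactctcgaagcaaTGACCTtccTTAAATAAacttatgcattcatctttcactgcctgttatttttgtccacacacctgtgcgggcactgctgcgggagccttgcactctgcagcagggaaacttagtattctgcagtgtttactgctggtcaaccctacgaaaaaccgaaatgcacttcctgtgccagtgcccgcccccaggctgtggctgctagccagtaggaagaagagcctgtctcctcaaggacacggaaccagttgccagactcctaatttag
No 2 marked motifs overlap in these windows. RefSeq windows were found for 43 of the 54 members. Searched on both strands, GCGTG was in 14 member windows and in 32.4% of 32851 windows genome-wide, AGGTCA was in 9 and in 16.3%, and TTANNTAA was in 4 and in 6%. The antioxidant response element core TGACNNNGC was in 5 member windows and in 12.4% of all windows, and the amino acid response element TGATGNAA was in 2 (Fmo6 and Fmo9) and in 3.97%. TATAAA on the sense strand was in 5 member windows and in 8.32% of all windows. A match is a description of these letters, and a missing match says only that they are not in this window. The windows of Fmo4 and Akr1b10 each hold 1 TTANNTAA and 1 AGGTCA, and that of Aldh18a1 holds 3 GCGTG matches. The windows of Akr1c19 and Fmo2, which fell by more than Adh7 after Con A, hold none of the motifs marked in capitals. Whether a motif bears on any change was not tested. The Fmo4 window is placed on a RefSeq start that lies 1423 bases from the GENCODE start, and that of Akr1c19 lies 5040 bases off. The windows of Akr1c14, Adh1 and Aldh1l1, which the counts include, lie 10580, 16594 and 64366 bases off.

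Total counts ran from 21580482 to 29466806 in FMT-Con A libraries, from 21772376 to 25890947 in Con A libraries and from 20513051 to 22770276 in WT libraries. The members held 0.415 to 0.568% of these counts in FMT-Con A, 0.513 to 0.666% in Con A and 0.789 to 0.847% in WT. Hepatocyte markers (11 genes) summed to 33939 to 35364 CPM in FMT-Con A, 49119 to 54202 in Con A and 60253 to 72153 in WT, and Alb alone held 17395 or more in every library. Between the groups the sum mostly follows Alb. Within FMT-Con A it does not, as FMT-Con A 2 had the lowest Alb, 17395 CPM, and the highest sum of that group, 35364 CPM. The markers went both ways by the test given further on. In Con A against WT 4 were higher and 3 lower, and in FMT-Con A against WT 3 were higher and 5 lower. In FMT-Con A against Con A 3 were lower and 0 higher. FMT-Con A 1 and FMT-Con A 3 stood apart: 21 skeletal muscle genes summed to 21279 and 21178 CPM there, against 2029 in FMT-Con A 2, to 12.5, 23.3 and 2201 in Con A 1, 2 and 3, and to 53.7 to 69.7 in WT. The 6 adipocyte markers were high there as well, at 384 and 379 CPM in FMT-Con A 1 and 3, against 215 in FMT-Con A 2, 139 to 217 in Con A and 29.9 to 61.9 in WT, with Adipoq at 12.6 and 11.6 CPM in FMT-Con A 1 and 3 and at most 4.64 in any other library. Carbonic anhydrase Car3 was left out of this sum after its high level in the WT livers had been seen. FMT-Con A 1 and 3 were also alike among themselves, with a median squared difference per gene of 2.56 times the sampling noise, while each differed from FMT-Con A 2 by 10.05 and 10.18 times. The WT pairs differed by 3.216 to 4.955 times and the Con A pairs by 7.57 to 12.69 times. The pair of FMT-Con A 1 and 3 was thus the closest within any group, and FMT-Con A 2 was no further off than Con A libraries from each other. Neutrophil markers (13 genes) summed to 231 to 336 CPM in FMT-Con A, 248.8 to 464 in Con A and 10.1 to 16 in WT. Mitochondrial transcripts held 7.44 to 11.7% of counts in FMT-Con A, 5.03 to 9.96% in Con A and 19.6 to 22.4% in WT. The part of muscle, neutrophils and adipocytes in the members' results was not tested. Results without FMT-Con A 1 and 3, or without muscle and mitochondrial transcripts, are given further on. In whole tissue, fewer cells of a type and less RNA per cell cannot be told apart.

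Levels of different genes are compared per length, and levels of 1 gene as CPM, here scaled with edgeR's TMM factors, which the marker sums are not. FPKM is that CPM per kilobase of exon. Summed over the 54 members, the level was 1022, 1505 and 978 FPKM in FMT-Con A, 2079, 1503 and 1408 FPKM in Con A and 1936, 2084 and 2186 FPKM in WT. The mean was 1168 ± 293 FPKM in FMT-Con A, 1664 ± 363 FPKM in Con A and 2069 ± 126 FPKM in WT (SD, n = 3 each), so the FMT-Con A and WT libraries did not overlap while the Con A libraries overlapped with both. The groups of enzymes moved unequally within this sum. The aldehyde oxidases summed to 9.59 ± 3.19 FPKM in FMT-Con A, 26.3 ± 12.5 FPKM in Con A and 70.5 ± 13.0 FPKM in WT, and the flavin monooxygenases to 52.0 ± 22.6 FPKM in FMT-Con A, 80.2 ± 6.04 FPKM in Con A and 192 ± 40.2 FPKM in WT. The pair of folate aldehyde dehydrogenases went the other way, at 162 ± 38.8 FPKM in FMT-Con A, 225 ± 52.7 FPKM in Con A and 105 ± 5.08 FPKM in WT.

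**Figure D1:**
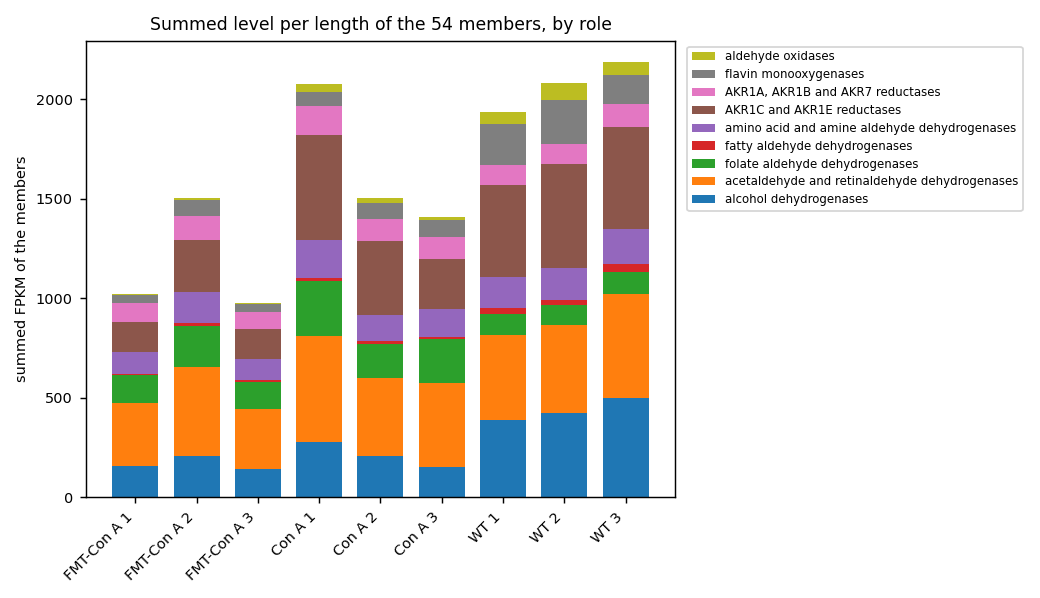
Summed FPKM of the members in each of the 9 libraries, stacked by enzyme group. The WT bars stand between 1936 and 2186 FPKM, FMT-Con A 1 and 3 at 1022 and 978 FPKM, and the segment of the folate enzymes is wider after Con A than in WT.

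The order of the genes by FPKM changed between the groups. In FMT-Con A livers the mitochondrial acetaldehyde dehydrogenase Aldh2 came 1st at 189.8 ± 20.9 FPKM, the folate enzyme Aldh1l1 2nd at 162 ± 38.9, the steroid reductase Akr1c6 3rd at 125 ± 45.4 and the class I alcohol dehydrogenase Adh1 4th at 124 ± 23.8 (SD, n = 3). In Con A livers Akr1c6 led at 272 ± 97.9 FPKM, before Aldh2 at 244 ± 37.0, Aldh1l1 at 225 ± 52.6 and Adh1 at 157 ± 54.4. In WT livers Adh1 led at 333 ± 54.3 FPKM, before Akr1c6 at 241 ± 31.9, Aldh2 at 215 ± 17.0 and the steroid reductase Akr1c14 at 179.7 ± 6.81. The first 4 in FMT-Con A lay within an SD of their neighbours. In Con A, Aldh1l1 exceeded Adh1 by more than either SD, and in WT Adh1 exceeded Akr1c6, and Aldh2 exceeded Akr1c14, by more than either SD, while the other neighbours named did not differ beyond it. Akr1c14 was 14th in FMT-Con A at 16.7 ± 6.72 FPKM and 9th in Con A at 47.5 ± 29.5 FPKM. Aldh1l1 was 7th in WT at 105 ± 5.08 FPKM, behind Aldh1a1, the cytosolic retinaldehyde dehydrogenase (144 ± 21.7), and Fmo5 (137 ± 36.2).

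All genes that passed a count filter were tested together with edgeR's quasi-likelihood F test, and a member was called where the Benjamini-Hochberg adjusted p over these 17704 genes was under 0.05. The filter asks for about 10 counts in at least 3 libraries, and 41 of the 54 members passed it. Akr1b8, Aldh18a1, Aldh1a2, Aldh1a3 and Aldh1l2 did not reach the cutoff in all WT libraries, so that they passed through the groups where they were high. These 5 are among the 7 members called higher in each comparison with WT, so those counts rest in part on how members entered the test. With no filter on low counts these 5 were called there too. In Con A against WT, 7 members were higher and 18 lower, 16 were not called, and the median log2 fold change was -0.39. Over all genes tested in that comparison 63.4% were called, 32.5% higher and 30.9% lower, with a median of 0.01. In FMT-Con A against WT, 7 members were higher and 20 lower, with a median of -0.67, against 59% of all genes called, 31.2% higher and 27.9% lower, with a median of 0.03. Both comparisons use the same WT libraries. In Con A against WT the values of the 2 groups were fully separate for 8 members higher and 21 lower (69.8% of all tested genes, 35% higher and 34.8% lower). In FMT-Con A against WT they were separate for 8 members higher and 21 lower (69.1% of all tested genes, 35.4% higher and 33.7% lower). In FMT-Con A against Con A, 3 members were higher and 4 lower, with a median of -0.31, against 16.8% of all genes called, 6.26% higher and 10.6% lower, with a median of -0.01. There the values were separate for 3 members higher and 6 lower (32.7% of all tested genes, 14% higher and 18.8% lower). The share of members called, 61% in Con A against WT, was near that of all genes, so the results lie in which members moved, which way and by how much.

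**Figure D2:**
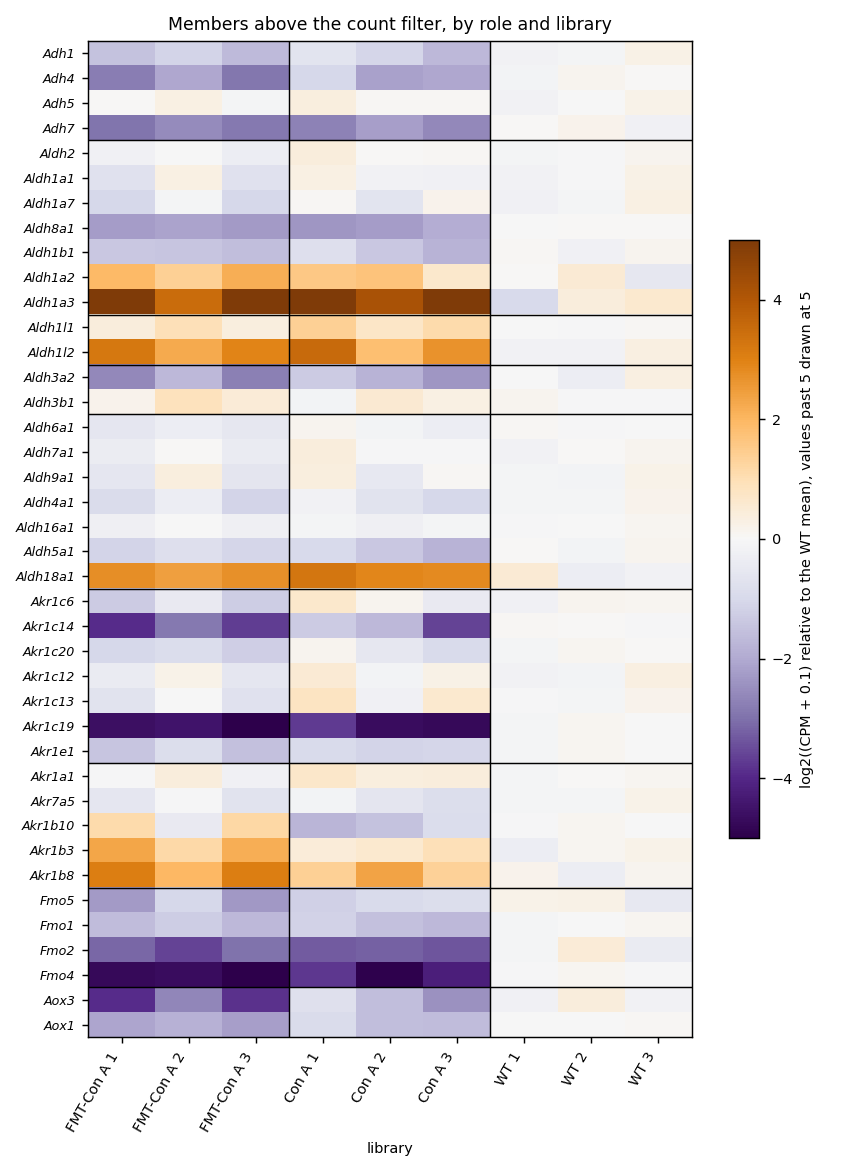
Level of 40 tested members in each library relative to the WT mean, as log2 of CPM plus 0.1, with members in rows by enzyme group and values past 5 drawn at 5. The rows of the flavin monooxygenases and aldehyde oxidases are low in all libraries after Con A, and those of Aldh1a3 and Aldh18a1 are high.

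Among the alcohol dehydrogenases, 3 of the 4 tested members fell after Con A and Adh5 was not called. Adh7 (ENSMUSG00000055301) lies on chromosome 3 at 138217760 to 138233382, and encodes the class IV enzyme, which is active on retinol and known mainly from the stomach. Adh7 had 11.9, 15.3 and 12.3 CPM in FMT-Con A, 14.0, 19.9 and 15.1 CPM in Con A and 93.3, 105 and 78.9 CPM in WT. Every library of injected mice lay far below every WT library, and the FMT-Con A and Con A libraries overlapped. Adh7 fell after Con A (log2 fold change -2.50 with an SE of 0.18 and edgeR adjusted p = 2.35e-06) and in FMT-Con A against WT (log2 fold change -2.81 with an SE of 0.18 and edgeR adjusted p = 2.12e-06). An antisense gene, 0610031O16Rik, overlaps Adh7 and held 8632 counts over the 9 libraries, against 8233 of Adh7, and since strand use in counting is not stated their reads cannot be told apart. Adh4, the class II enzyme, had 9.85, 16.5 and 9.12 CPM in FMT-Con A, 33.2, 15.1 and 16.5 CPM in Con A and 62.9, 74.9 and 69.0 CPM in WT. All injected libraries lay below all WT libraries, and FMT-Con A 2 lay within the Con A range. Adh4 fell after Con A (log2 fold change -1.67 with an SE of 0.31 and edgeR adjusted p = 0.00102) and in FMT-Con A against WT (log2 fold change -2.55 with an SE of 0.32 and edgeR adjusted p = 0.000118). Its log2 fold change of -0.87 between FMT-Con A and Con A had an edgeR adjusted p of 0.0785. Adh1, the class I enzyme that carries most hepatic ethanol and retinol oxidation, had 261, 337 and 234 CPM in FMT-Con A, 471, 351 and 227 CPM in Con A and 655, 693 and 881 CPM in WT. It fell after Con A (log2 fold change -1.09 with an SE of 0.26 and edgeR adjusted p = 0.00478), with no overlap between the groups, and in FMT-Con A against WT (log2 fold change -1.42 with an SE of 0.27 and edgeR adjusted p = 0.00128). Adh5, the glutathione-dependent formaldehyde dehydrogenase, had 170.0, 207 and 155 CPM in FMT-Con A, 218, 176 and 175 CPM in Con A and 148, 165 and 193 CPM in WT, with overlapping groups and a log2 fold change of 0.17 after Con A (edgeR adjusted p = 0.39).

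The dehydrogenases of acetaldehyde and retinaldehyde split, with 2 of 7 tested members higher and 2 lower after Con A. Aldh1a3 (ENSMUSG00000015134) lies on chromosome 7 at 66390890 to 66427517, and makes retinoic acid from retinaldehyde. Aldh1a3 had 14.0, 3.18 and 13.1 CPM in FMT-Con A, 14.9, 5.05 and 13.8 CPM in Con A and 0.0458, 0.281 and 0.334 CPM in WT. It was close to absent in WT livers, and FMT-Con A 2 and Con A 2 were the lowest of the injected libraries. Aldh1a3 rose after Con A (log2 fold change 5.63 with an SE of 0.78 and edgeR adjusted p = 0.000158) and in FMT-Con A against WT (log2 fold change 5.47 with an SE of 0.78 and edgeR adjusted p = 0.000251). In this fit it had the largest rise of a tested member in both comparisons, before Aldh1l2 at 5.12 and 5.17. That order depends on the setting, as Aldh1l2 reached 7.02 and 7.09 in other settings, against at most 6.06 and 5.92 for Aldh1a3. Aldh1a2, the enzyme that makes retinoic acid in the embryo, had 1.14, 0.76 and 1.37 CPM in FMT-Con A, 0.89, 0.97 and 0.414 CPM in Con A and 0.229, 0.375 and 0.13 CPM in WT. It was called higher after Con A (log2 fold change 1.62 with an SE of 0.51 and edgeR adjusted p = 0.0182), at levels near 1 CPM. Over 15 alternative settings its adjusted p in that comparison ran from 0.00880 to 0.0690, missing the threshold without Con A 1, Con A 2, WT 1 or WT 3. Against these stood Aldh8a1, a retinaldehyde dehydrogenase that also takes part in tryptophan breakdown, with 41.4, 44.5 and 40.7 CPM in FMT-Con A, 38.1, 41.1 and 51.7 CPM in Con A and 192, 198 and 201 CPM in WT. The 6 libraries of injected mice had at most 51.7 CPM and the WT libraries at least 192 CPM. Aldh8a1 fell after Con A (log2 fold change -2.17 with an SE of 0.14 and edgeR adjusted p = 1.39e-06) and in FMT-Con A against WT (log2 fold change -2.22 with an SE of 0.14 and edgeR adjusted p = 1.98e-06). Aldh1b1, a mitochondrial enzyme of acetaldehyde, had 7.89, 7.83 and 6.9 CPM in FMT-Con A, 12.0, 7.96 and 5.93 CPM in Con A and 21.7, 18.2 and 23.4 CPM in WT, and fell in both comparisons with WT (log2 fold change -1.29, edgeR adjusted p = 0.000831 for Con A, and -1.49, edgeR adjusted p = 0.000458 for FMT-Con A).

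The most abundant members of that group were not called. Aldh2 had 948, 1091 and 881 CPM in FMT-Con A, 1468, 1131 and 1149.6 CPM in Con A and 1041, 1067 and 1203 CPM in WT. Its groups overlapped, and its log2 fold change after Con A was 0.18 (edgeR adjusted p = 0.365). Aldh1a1 had 432, 867 and 432 CPM in FMT-Con A, 867, 623 and 607 CPM in Con A and 625, 671 and 829.7 CPM in WT, with FMT-Con A 1 and 3 lowest and FMT-Con A 2 level with Con A 1, and a log2 fold change of -0.02 after Con A (edgeR adjusted p = 0.958). Its neighbour Aldh1a7, a close relative found in rodents, had 51.3, 100.4 and 51.2 CPM in FMT-Con A, 110.1, 68.3 and 120.4 CPM in Con A and 91.7, 99.4 and 131 CPM in WT and was likewise highest in FMT-Con A 2 within FMT-Con A. The 2 genes shared 1 of the 100-base windows of their exons.

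The 10-formyltetrahydrofolate dehydrogenases, which remove 1-carbon units from the folate pool, were both higher after Con A. Aldh1l1 (ENSMUSG00000030088) lies on chromosome 6 at 90486427 to 90600203, and is the cytosolic enzyme. Aldh1l1 had 639, 932 and 619 CPM in FMT-Con A, 1253, 778 and 1014 CPM in Con A and 470.4, 455 and 500.0 CPM in WT. All libraries of injected mice were above the WT libraries, with Con A 1 and 3 highest. Aldh1l1 rose after Con A (log2 fold change 1.10 with an SE of 0.22 and edgeR adjusted p = 0.00161) and, by less, in FMT-Con A against WT (log2 fold change 0.62 with an SE of 0.22 and edgeR adjusted p = 0.0319). Against WT the adjusted p of FMT-Con A ran from 0.0110 to 0.0990 over 16 settings, missing the threshold without FMT-Con A 2, without any 1 of the WT libraries or with the replicate number as a block. Aldh1l2, the mitochondrial enzyme, had 30, 9 and 20 counts in FMT-Con A, 23, 6 and 15 counts in Con A and 0, 0 and 1 count in WT. Its count ratio was 46.3 for Con A over WT (95% counting interval 7.88 to 1869) and 50.2 for FMT-Con A over WT (8.66 to 2015), and it was called higher in both (edgeR adjusted p = 0.00105 and 0.00111). Intervals cover counting error only. The gene D10Wsu102e overlaps Aldh1l2 on the other strand and held 12698 counts over the 9 libraries, so the source of the Aldh1l2 reads is uncertain.

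Among the dehydrogenases of amino acid and amine aldehydes, 1 of 7 tested members rose and 1 fell after Con A. Aldh18a1 (ENSMUSG00000025007) lies on chromosome 19 at 40550257 to 40588463, and encodes the enzyme that commits glutamate to proline synthesis. Aldh18a1 had 3.57, 2.85 and 3.51 CPM in FMT-Con A, 5.08, 3.93 and 3.81 CPM in Con A and 0.687, 0.328 and 0.376 CPM in WT. The lowest injected library, FMT-Con A 2, was above the highest WT library, WT 1. Aldh18a1 rose after Con A (log2 fold change 3.19 with an SE of 0.31 and edgeR adjusted p = 1.73e-05) and in FMT-Con A against WT (log2 fold change 2.83 with an SE of 0.31 and edgeR adjusted p = 5.17e-05). A processed pseudogene, Gm15801, lies within Aldh18a1 on the same strand and held 1125 counts, against 566 of Aldh18a1. Aldh4a1, which runs the proline route the opposite way, toward glutamate, had 62.6, 95.1 and 54.2 CPM in FMT-Con A, 105, 73.3 and 57.7 CPM in Con A and 112, 111 and 133 CPM in WT. It was lower in FMT-Con A against WT (log2 fold change -0.75 with an SE of 0.25 and edgeR adjusted p = 0.0271), and in Con A against WT its log2 fold change was -0.59 (edgeR adjusted p = 0.063). Aldh5a1, the succinic semialdehyde dehydrogenase of GABA breakdown, had 15.4, 19.2 and 16 CPM in FMT-Con A, 16.8, 12.8 and 9.41 CPM in Con A and 33.6, 30.1 and 37.0 CPM in WT, and fell after Con A (log2 fold change -1.37 with an SE of 0.20 and edgeR adjusted p = 0.000204) and in FMT-Con A against WT (log2 fold change -0.99 with an SE of 0.19 and edgeR adjusted p = 0.00173). Aldh6a1, the methylmalonate semialdehyde dehydrogenase of valine breakdown, had 179.7, 208 and 183 CPM in FMT-Con A, 291, 238 and 211 CPM in Con A and 272, 257 and 264 CPM in WT, with every FMT-Con A library below every WT library (log2 fold change -0.47, edgeR adjusted p = 0.0195). Over 16 settings the FMT-Con A against WT calls of Aldh4a1 and Aldh6a1 reached adjusted p of 0.436 and 0.247, both without FMT-Con A 1 and 3 together, and missed the threshold also without FMT-Con A 1, FMT-Con A 3, WT 1 or WT 3. The Aldh6a1 call was lost with no filter on low counts too. Aldh7a1 of lysine breakdown, Aldh9a1 of carnitine synthesis and Aldh16a1 were not called in any comparison, with Con A log2 fold changes of 0.11, 0.01 and -0.14. The genes Aldh16a1 and Pih1d1 overlap on opposite strands.

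Of 5 fatty aldehyde dehydrogenases, 2 were tested. Aldh3a2 (ENSMUSG00000010025) lies on chromosome 11 at 61223417 to 61267464, and encodes the microsomal enzyme whose loss in humans causes Sjögren-Larsson syndrome. Aldh3a2 had 28.0, 52.6 and 25.4 CPM in FMT-Con A, 68.2, 48.0 and 33.0 CPM in Con A and 169, 137 and 215 CPM in WT. All injected libraries lay below all WT libraries, and FMT-Con A 2 lay within the Con A range. Aldh3a2 fell after Con A (log2 fold change -1.80 with an SE of 0.33 and edgeR adjusted p = 0.00102) and in FMT-Con A against WT (log2 fold change -2.30 with an SE of 0.34 and edgeR adjusted p = 0.000329). Aldh3b1 had 2.56, 4.23 and 3.2 CPM in FMT-Con A, 2.04, 3.4 and 2.82 CPM in Con A and 2.47, 2.15 and 2.17 CPM in WT and was not called, at a log2 fold change of 0.28 after Con A (edgeR adjusted p = 0.383).

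**Figure D3:**
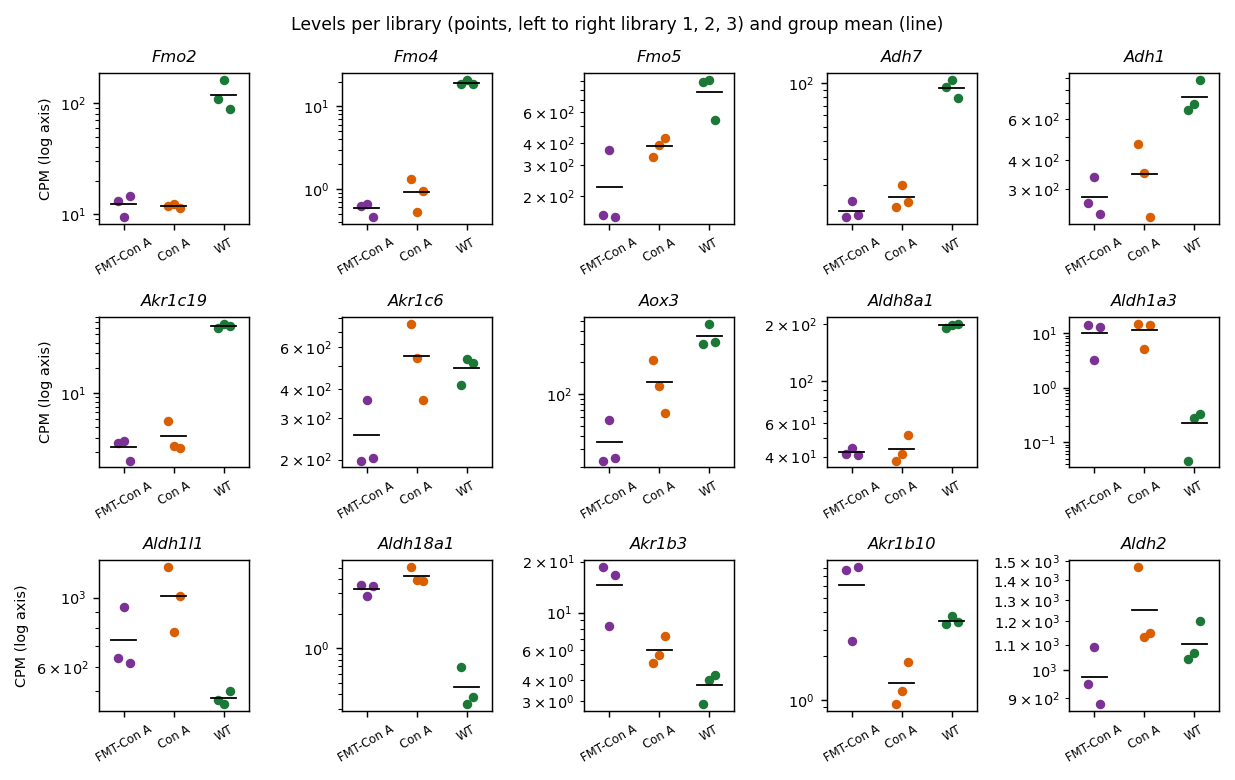
CPM on a log axis for members with large or opposed changes, 1 panel a gene, with points for libraries 1, 2 and 3 from left to right in each group and a line at the group mean. In the panels of Fmo4, Fmo2, Adh7 and Akr1c19 the FMT-Con A and Con A points lie together below the WT points.

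The flavin monooxygenases Fmo1, Fmo2, Fmo4 and Fmo5 fell after Con A. Fmo4 (ENSMUSG00000026692) lies on chromosome 1 at 162793188 to 162813972. Fmo4 had 0.631, 0.665 and 0.458 CPM in FMT-Con A, 1.31, 0.534 and 0.953 CPM in Con A and 18.5, 20.9 and 18.6 CPM in WT. Every injected library had at most 1.31 CPM and every WT library at least 18.5 CPM, and FMT-Con A and Con A overlapped. Fmo4 fell after Con A (log2 fold change -4.37 with an SE of 0.28 and edgeR adjusted p = 1.44e-06) and in FMT-Con A against WT (log2 fold change -5.04 with an SE of 0.29 and edgeR adjusted p = 1.32e-06), the largest fall of a tested member in both. Fmo2, best known as the lung form, had 13.1, 9.35 and 14.6 CPM in FMT-Con A, 11.7, 12.4 and 11.2 CPM in Con A and 109, 162 and 87.8 CPM in WT. The 6 injected libraries spanned 9.35 to 14.6 CPM, and the lowest WT library had 87.8 CPM. Fmo2 fell after Con A (log2 fold change -3.35 with an SE of 0.25 and edgeR adjusted p = 2.93e-06) and in FMT-Con A against WT (log2 fold change -3.27 with an SE of 0.24 and edgeR adjusted p = 4.98e-06). Fmo1, which oxidises tertiary amines and sulphides, had 56.1, 71.7 and 53.3 CPM in FMT-Con A, 79.0, 59.4 and 53.6 CPM in Con A and 163, 174 and 188 CPM in WT, and fell after Con A (log2 fold change -1.45 with an SE of 0.18 and edgeR adjusted p = 7.10e-05) with overlapping FMT-Con A and Con A libraries. Fmo5, the most abundant of them and known for inserting oxygen beside a ketone group, had 156, 366 and 152 CPM in FMT-Con A, 334, 390.4 and 427 CPM in Con A and 882, 906 and 539 CPM in WT. The lowest libraries were 1 and 3 of FMT-Con A, and FMT-Con A 2 lay within the Con A range. Fmo5 fell after Con A (log2 fold change -1.02 with an SE of 0.34 and edgeR adjusted p = 0.0256) and in FMT-Con A against WT (log2 fold change -1.79 with an SE of 0.35 and edgeR adjusted p = 0.00176). Its adjusted p after Con A ran from 0.00184 to 0.0830 over 16 settings, missing the threshold without Con A 1, Con A 2, WT 1 or WT 2.

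Both tested aldehyde oxidases fell after Con A and were lower again in FMT-Con A. Aox3 (ENSMUSG00000064294) lies on chromosome 1 at 58113130 to 58200698, and encodes a main hepatic form in mice. Aox3 had 23.2, 56.2 and 24.4 CPM in FMT-Con A, 209.9, 119 and 65.9 CPM in Con A and 301, 469 and 313 CPM in WT. The 3 groups did not overlap. Aox3 fell after Con A (log2 fold change -1.46 with an SE of 0.45 and edgeR adjusted p = 0.0166), was lower in FMT-Con A than in Con A (log2 fold change -1.93 with an SE of 0.46 and edgeR adjusted p = 0.0224) and fell in FMT-Con A against WT (log2 fold change -3.38 with an SE of 0.48 and edgeR adjusted p = 0.000259). Its adjusted p after Con A ran from 0.000624 to 0.0547 over 16 settings, missing the threshold without WT 2. Aox1, the form shared with humans, had 39.1, 46.0 and 36.5 CPM in FMT-Con A, 88.1, 55.8 and 53.4 CPM in Con A and 165, 163 and 172 CPM in WT. Its groups did not overlap either. Aox1 fell after Con A (log2 fold change -1.34 with an SE of 0.19 and edgeR adjusted p = 0.000209), was lower in FMT-Con A than in Con A (log2 fold change -0.70 with an SE of 0.19 and edgeR adjusted p = 0.0365) and fell in FMT-Con A against WT (log2 fold change -2.04 with an SE of 0.20 and edgeR adjusted p = 2.32e-05).

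Of the 7 tested AKR1C and AKR1E reductases, 3 fell after Con A and 4 were not called. Akr1c19 (ENSMUSG00000071551) lies on chromosome 13 at 4228700 to 4252843. Akr1c19 had 2.56, 2.75 and 1.6 CPM in FMT-Con A, 4.71, 2.38 and 2.28 CPM in Con A and 59.7, 67.0 and 63.0 CPM in WT. The injected libraries had at most 4.71 CPM and the WT libraries at least 59.7 CPM. Akr1c19 fell after Con A (log2 fold change -4.35 with an SE of 0.29 and edgeR adjusted p = 1.65e-06) and in FMT-Con A against WT (log2 fold change -4.78 with an SE of 0.30 and edgeR adjusted p = 1.85e-06). Akr1c14, the 3-alpha-hydroxysteroid dehydrogenase of mouse liver, had 38.0, 78.9 and 45.4 CPM in FMT-Con A, 234, 179.8 and 48.1 CPM in Con A and 598, 591 and 557 CPM in WT. Con A 3 lay among the FMT-Con A libraries and apart from Con A 1 and 2, and all injected libraries lay below WT. Akr1c14 fell after Con A (log2 fold change -1.92 with an SE of 0.49 and edgeR adjusted p = 0.00611) and in FMT-Con A against WT (log2 fold change -3.43 with an SE of 0.52 and edgeR adjusted p = 0.000361), and its log2 fold change of -1.51 in FMT-Con A against Con A had an edgeR adjusted p of 0.0572. Akr1e1, which reduces 1,5-anhydrofructose, had 9.53, 14.5 and 8.96 CPM in FMT-Con A, 13.3, 12.0 and 12.4 CPM in Con A and 24.5, 27.8 and 25.8 CPM in WT, and fell after Con A (log2 fold change -1.05 with an SE of 0.18 and edgeR adjusted p = 0.000555). Akr1c6, a 17-beta-hydroxysteroid dehydrogenase and the most abundant of the group, had 198, 360.0 and 203 CPM in FMT-Con A, 758, 541 and 360.2 CPM in Con A and 416, 537 and 518 CPM in WT. Con A 1 was highest and FMT-Con A 1 and 3 were lowest, while FMT-Con A 2 and Con A 3 were level. Akr1c6 had a log2 fold change of 0.17 after Con A (edgeR adjusted p = 0.631), and was lower in FMT-Con A against Con A (log2 fold change -1.12 with an SE of 0.31 and edgeR adjusted p = 0.0351) and against WT (log2 fold change -0.95 with an SE of 0.30 and edgeR adjusted p = 0.0217). Akr1c20 had 25.4, 28.8 and 22.3 CPM in FMT-Con A, 57.2, 36.2 and 27.3 CPM in Con A and 48.8, 56.1 and 52.8 CPM in WT and was called lower in FMT-Con A against WT only (log2 fold change -1.04 with an SE of 0.23 and edgeR adjusted p = 0.00353).

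Akr1c12 and Akr1c13 shared 11.5% of the 100-base windows of their exons, so reads could be split between them and their values are uncertain. Akr1c13 had 13.1, 20.6 and 12.6 CPM in FMT-Con A, 35.9, 18 and 31.8 CPM in Con A and 20, 19.5 and 23.3 CPM in WT, and was called lower in FMT-Con A than in Con A (log2 fold change -0.89 with an SE of 0.26 and edgeR adjusted p = 0.0448), although FMT-Con A 2 exceeded Con A 2. Akr1c12 had 17.2, 26.6 and 15.8 CPM in FMT-Con A, 33.4, 21.1 and 27.9 CPM in Con A and 20.3, 21.1 and 28.7 CPM in WT and was not called in any comparison.

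Of the 5 tested AKR1A, AKR1B and AKR7 reductases, 2 rose and 1 fell after Con A, and 2 rose in FMT-Con A against WT, where the other 3 were not called. Akr1b10 (ENSMUSG00000061758) lies on chromosome 6 at 34384218 to 34396950. Akr1b10 had 7.64, 2.52 and 8.05 CPM in FMT-Con A, 0.943, 1.16 and 1.82 CPM in Con A and 3.3, 3.75 and 3.43 CPM in WT. The Con A libraries were all below WT, FMT-Con A 1 and 3 were above WT, and FMT-Con A 2 lay between Con A and WT. Akr1b10 fell after Con A (log2 fold change -1.40 with an SE of 0.43 and edgeR adjusted p = 0.0161) and was higher in FMT-Con A than in Con A (log2 fold change 2.20 with an SE of 0.43 and edgeR adjusted p = 0.0116). Without Con A 1 the fall after Con A had an adjusted p of 0.0570, the highest of 16 settings, the lowest being 0.00112. Akr1b3, the aldose reductase that turns glucose into sorbitol, had 18.6, 8.31 and 16.6 CPM in FMT-Con A, 5.08, 5.63 and 7.29 CPM in Con A and 2.88, 3.98 and 4.3 CPM in WT. The 3 groups did not overlap, and FMT-Con A 1 and 3 were well above FMT-Con A 2. Akr1b3 was higher in FMT-Con A against Con A (log2 fold change 1.27 with an SE of 0.30 and edgeR adjusted p = 0.0213) and against WT (log2 fold change 1.96 with an SE of 0.31 and edgeR adjusted p = 0.000444), and after Con A its log2 fold change was 0.69 (edgeR adjusted p = 0.0708). Akr1b8, an aldose reductase-like enzyme, had 5.4, 2.47 and 5.38 CPM in FMT-Con A, 1.62, 3.25 and 1.58 CPM in Con A and 0.641, 0.421 and 0.627 CPM in WT, and rose after Con A (log2 fold change 1.92 with an SE of 0.44 and edgeR adjusted p = 0.00337) and in FMT-Con A against WT (log2 fold change 2.96 with an SE of 0.43 and edgeR adjusted p = 0.000296). Akr1a1, the glucuronate reductase used in ascorbate synthesis, had 167, 230.0 and 151 CPM in FMT-Con A, 283, 224 and 229.7 CPM in Con A and 163, 175 and 185 CPM in WT. It was called higher after Con A (log2 fold change 0.50 with an SE of 0.18 and edgeR adjusted p = 0.0333), with all Con A libraries above all WT libraries. Its adjusted p ran from 0.0109 to 0.132 over 16 settings, missing the threshold without Con A 1, without any 1 of the WT libraries or with the replicate number as a block. Akr7a5, an aflatoxin aldehyde reductase, had 45.6, 65.3 and 42.2 CPM in FMT-Con A, 62.3, 44.9 and 37.7 CPM in Con A and 63.7, 63.1 and 79.1 CPM in WT and was not called.

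**Figure D4:**
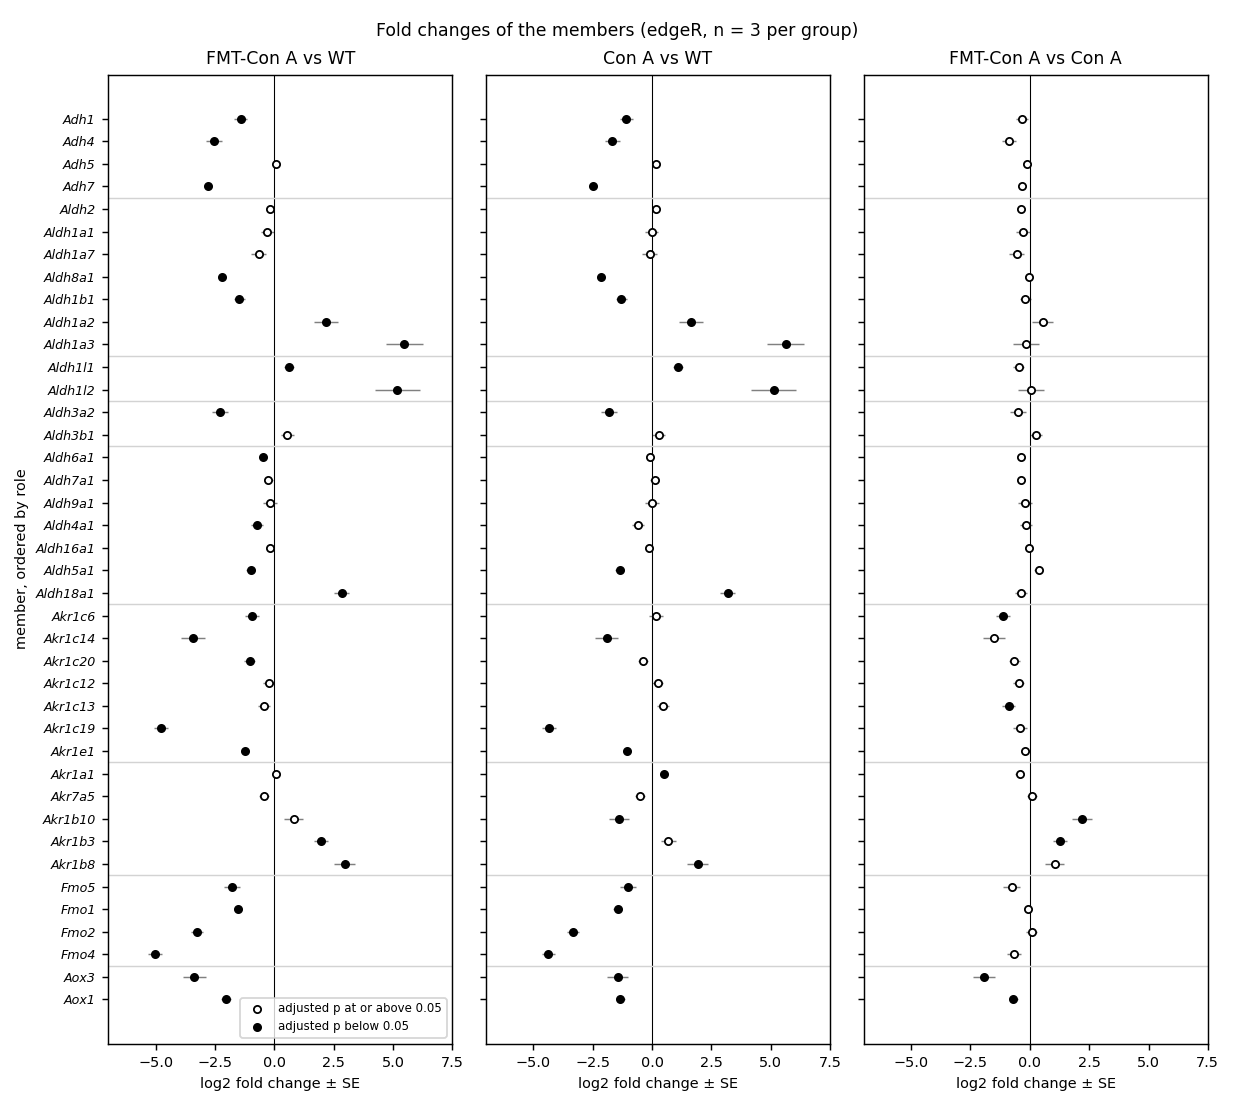
Log2 fold changes with their SE for 40 tested members in the 3 comparisons, 3 libraries a group, with members in the same rows in each panel. Points for Fmo4 and Akr1c19 lie below -4 in Con A against WT, and most points of FMT-Con A against Con A lie within 1 of 0.

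The calls of Akr1b10, Akr1b3, Akr1c6, Akr1c13, Aox1 and Aox3 between FMT-Con A and Con A needed FMT-Con A 1. Within that group FMT-Con A 1 and 3 held the 2 highest values of Akr1b10 and Akr1b3 and the 2 lowest of Akr1c6, Akr1c13, Aox1 and Aox3, and the 2 highest sums of the skeletal muscle genes. Without both of them no member was called, 99 genes were called in all, and the log2 fold changes were 0.93 for Akr1b10, 0.47 for Akr1b3, -0.47 for Akr1c13, -0.62 for Akr1c6, -0.51 for Aox1 and -1.23 for Aox3, with edgeR adjusted p of 0.298 to 0.514. Over 16 settings the lowest adjusted p of these 6 ran from 1.51e-05 for Akr1b10 to 0.00706 for Akr1c13. Leaving out FMT-Con A 1 alone left 0 members called by edgeR, FMT-Con A 3 alone left Akr1b10, and leaving out FMT-Con A 2 gave 19 members. The count filter was applied anew there, so the 19 include members that were below it with all libraries. Without Con A 1 these 6 had adjusted p of 0.0523 for Akr1b10 to 0.174 for Akr1c13. At an unadjusted p under 0.05 edgeR gave 10 members without FMT-Con A 1 alone and 3 members without both FMT-Con A 1 and FMT-Con A 3. DESeq2 was run with all libraries only, where it called 11. Akr1c13, Akr1c6 and Aox1 also missed the threshold without any 1 of the WT libraries, Akr1c6 without Con A 2 and Akr1c13 without Con A 3. With the mitochondrial and skeletal muscle transcripts taken out of the counts, these 6 were again called. That setting leaves the members' own counts as they were, so it cannot show what part of them came from muscle. Between FMT-Con A 2 alone, assumed to vary like the other groups, and WT 21 members were called, against 27 with all 3 FMT-Con A libraries, and the 6 lost were Akr1c20, Akr1c6, Aldh1a2, Aldh4a1, Aldh5a1 and Aldh6a1. The Akr1c6 call in FMT-Con A against WT also missed the threshold without FMT-Con A 1, FMT-Con A 3, WT 2 or WT 3, with adjusted p of 0.00297 to 0.375 over 16 settings.

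The other 13 members were below the filter: Adh6a, Adh6b, Akr1b7, Akr1c18, Akr1c21, Akr1cl, Aldh3a1, Aldh3b2, Aldh3b3, Aox2, Aox4, Fmo6 and Fmo9. Akr1b7, an aldose reductase-like enzyme known from the adrenal and vas deferens, had 10, 2 and 5 counts in FMT-Con A, 73, 9 and 41 counts in Con A and 4, 1 and 1 counts in WT. The Con A counts of Akr1b7 exceeded all WT counts. As CPM, Con A 2 had 0.437 and the FMT-Con A libraries had 0.316, 0.095 and 0.191. Con A 2 was thus above FMT-Con A, though on 9 counts. Aldh3b2 had 24, 2 and 20 counts in FMT-Con A, 0, 3 and 1 counts in Con A and 1, 2 and 1 counts in WT, so that its counts were in FMT-Con A 1 and 3. Up to 14% of the 100-base windows of Aldh3b2 are shared with Aldh3b3, which makes its counts uncertain. Aldh3a1, the corneal form that is inducible in rodent liver, had 5, 3 and 1 counts in FMT-Con A, 1, 2 and 9 counts in Con A and 1, 0 and 1 counts in WT, too few to place in an order.

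Genes that neighbour each other often differed in their changes. On chromosome 3 (138217760 to 138455499) the alcohol dehydrogenases run in the order Adh7, Adh1, Adh6a, Adh6b, Adh4 and Adh5, all on the plus strand, and their log2 fold changes after Con A were -2.50, -1.09, untested, untested, -1.67 and 0.17. On chromosome 13 (4049011 to 4609174) Akr1c19, at -4.35 after Con A, lies between Akr1c13 at 0.45 and Akr1c12 at 0.23, neither of them called. On chromosome 6 (34302434 to 34423142) Akr1b3, Akr1b8 and Akr1b10 stand in that order, at 0.69, 1.92 and -1.40 after Con A and at 1.27, 1.04 and 2.20 in FMT-Con A against Con A. The flavin monooxygenase cluster on chromosome 1 (162793188 to 162984528) differed in that Fmo4, Fmo1 and Fmo2 all fell after Con A, with log2 fold changes of -4.37 for Fmo4, -1.45 for Fmo1 and -3.35 for Fmo2, and Fmo5, alone on chromosome 3, had -1.02. Aox1 and Aox3, side by side on the same chromosome 1 (58029931 to 58380259 with Aox4 and Aox2), had -1.34 and -1.46 after Con A.

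**Figure D5:**
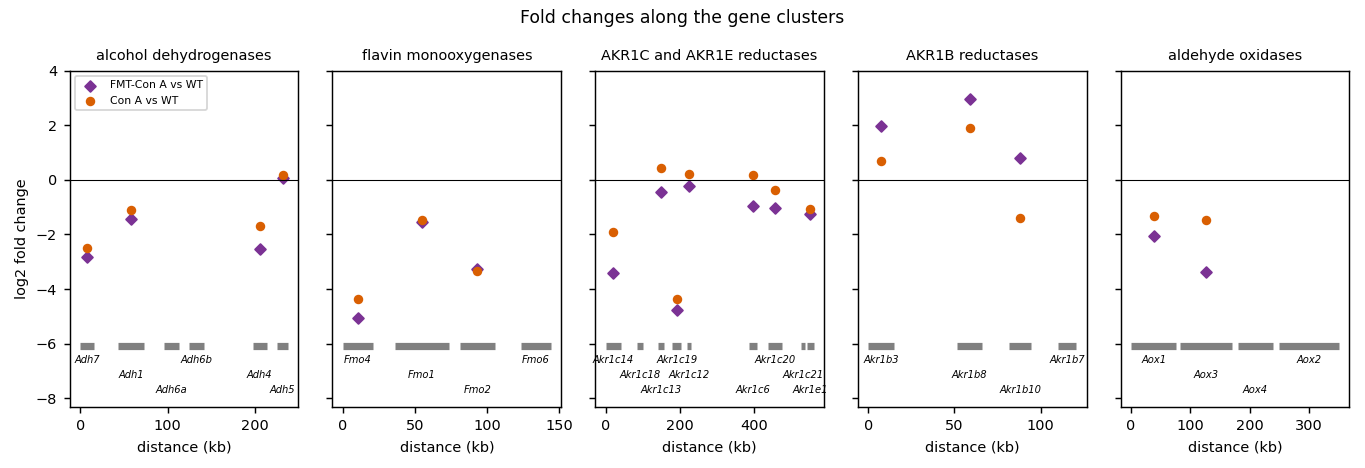
Log2 fold changes of tested members in FMT-Con A and Con A against WT along 5 gene clusters by distance in kb from the first gene, with grey bars for the genes. Within the Akr1c cluster Akr1c19 lies below -4 beside genes near 0, while the 3 Fmo genes drawn with points on chromosome 1 lie below 0 after Con A.

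Enzymes that work beside the members were read from lists chosen for their routes. Over all tested genes 63.4% were called in Con A against WT, 59% in FMT-Con A against WT and 16.8% in FMT-Con A against Con A. The counts of each list stand beside these shares, and no list was tested as a set. Of 17 tested genes of the retinoid route, 12 were lower and 3 higher after Con A. Bco1, which cleaves beta-carotene to retinaldehyde, rose (log2 fold change 3.07 with an SE of 0.31 and edgeR adjusted p = 1.94e-05), as did Dhrs9, a retinol dehydrogenase (log2 fold change 3.49 with an SE of 0.41 and edgeR adjusted p = 5.96e-05). Dhrs3, which reduces retinaldehyde to retinol, fell (log2 fold change -1.34 with an SE of 0.17 and edgeR adjusted p = 8.90e-05), and Lrat, which makes retinyl esters in stellate cells, had a log2 fold change of -2.36 at an edgeR adjusted p = 0.00026. In FMT-Con A against WT 10 of the 17 were lower and 2 higher, and in FMT-Con A against Con A the retinoic acid receptor Rarg was higher (log2 fold change 1.11, edgeR adjusted p = 0.0207) and Bco1 lower (log2 fold change -1.39, edgeR adjusted p = 0.0141). Of the 6 genes of the ethanol and acetate route, 3 fell and 1 rose after Con A. Acss2, which activates acetate, was among the falls (log2 fold change -1.38 with an SE of 0.27 and edgeR adjusted p = 0.00138).

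Of 20 tested partners of the amino acid and folate aldehydes, 5 were higher and 7 lower after Con A, where 63.4% of all tested genes were called. Mthfd2 and Mthfd1l, mitochondrial folate enzymes, rose (log2 fold change 3.44 with an SE of 0.27 and edgeR adjusted p = 4.87e-06 for Mthfd2, and log2 fold change 3.20 with an SE of 0.27 and edgeR adjusted p = 6.52e-06 for Mthfd1l). Mthfd2 had 14.5, 22.8 and 12.7 CPM in FMT-Con A, 21.7, 24.6 and 17.2 CPM in Con A and 1.47, 2.11 and 2.26 CPM in WT and all injected libraries lay above the WT libraries. Prodh, which starts proline breakdown, Ftcd, which feeds histidine carbon into folate, and Shmt1, the cytosolic serine enzyme of folate, were lower after Con A, with log2 fold changes of -1.64, -1.79 and -1.89 (edgeR adjusted p = 4.49e-06, 1.73e-05 and 1.31e-05). In FMT-Con A against WT 5 partners were higher and 13 lower, and in FMT-Con A against Con A 3 were lower. Aass of lysine breakdown, Shmt2 and Mthfd1l of mitochondrial folate were lower (log2 fold changes -1.35, -0.57 and -0.85, edgeR adjusted p = 0.00902, 0.0151 and 0.0391).

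Beside the aldehyde oxidases, Xdh, the xanthine oxidoreductase that uses the same molybdenum cofactor, went the other way. Xdh had 656, 693 and 643 CPM in FMT-Con A, 1505, 970.4 and 1425 CPM in Con A and 165, 163 and 122 CPM in WT. All injected libraries lay far above WT, and Con A 1 was highest. Xdh rose after Con A (log2 fold change 3.12 with an SE of 0.21 and edgeR adjusted p = 2.01e-06) and was lower in FMT-Con A than in Con A (log2 fold change -0.97 with an SE of 0.20 and edgeR adjusted p = 0.0141). Mocos, the sulphurase that activates Aox and Xdh proteins, had a log2 fold change of 1.21 after Con A (edgeR adjusted p = 0.000192), and Mocs3, which supplies sulphur for the cofactor, of 1.26 (edgeR adjusted p = 0.000257). Of the 9 tested genes of the cofactor and its enzymes, 3 were higher and 2 lower after Con A, and in FMT-Con A against Con A 4 were lower: Mocos, Mocs2 and Gphn, which build or activate the cofactor, and Xdh. Over all tested genes 63.4% were called after Con A, and 10.6% were lower in FMT-Con A against Con A. Of 10 tested genes of polyol, glucuronate and quinone reduction, 5 were lower after Con A and the other 5 were not called. Sord, which follows aldose reductase in the polyol route, fell (log2 fold change -2.52 with an SE of 0.26 and edgeR adjusted p = 2.30e-05), as did the carbonyl reductase Cbr1 (log2 fold change -2.04 with an SE of 0.12 and edgeR adjusted p = 7.32e-07). In FMT-Con A against Con A 1 gene of the 10 was higher and 2 were lower. Cbr1 was higher (log2 fold change 0.86 with an SE of 0.11 and edgeR adjusted p = 0.00285) and Nqo2, a quinone reductase, was lower (log2 fold change -0.82 with an SE of 0.16 and edgeR adjusted p = 0.0131). Without FMT-Con A 1 and 3 the partner genes named as called between FMT-Con A and Con A all missed the threshold, with edgeR adjusted p of 0.0698 for Cbr1 to 0.360 for Rarg. With 1 library left out at a time, Cbr1 and Aass stayed called. The other 9 missed the threshold without Con A 1 and without FMT-Con A 3. All of them but Shmt2 also missed it without FMT-Con A 1. Mocos missed it as well without Con A 3 or WT 1, and Mthfd1l without each library but Con A 2. The highest adjusted p of these 9 ran from 0.0587 for Shmt2 to 0.114 for Mthfd1l.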

How the data were processed

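Polyadenylated liver RNA was extracted with Trizol and sequenced as paired reads on an Illumina instrument, per the labels' protocols. The authors deposited 1 file of raw read counts per gene and library, made with CASAVA, HISAT2 and featureCounts on GRCm38 (mm10), per the submitters' processing notes. Versions, annotation release, strand setting and treatment of multi-mapping reads are not given in the sources used here. Symbols, gene types, positions and exon lengths came from GENCODE vM21 on the same build, and promoter windows from RefSeq (GRCm38.p6).

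The 9 libraries were fitted together in edgeR 4.0.16 (R 4.3.3) with TMM factors, filterByExpr (minimum count 10, minimum total 15; 17704 genes kept) and quasi-likelihood F tests, two-sided, with 6 residual degrees of freedom. P-values were adjusted by Benjamini-Hochberg over all genes tested, at a threshold of 0.05. The SE was taken from F, by dividing the size of the log2 fold change by its square root, and the prior count was 0.125. The fit was tested on simulated counts. Alternatives were DESeq2 1.42.0, other size factors, no filter, only the groups compared, a replicate block, leaving out libraries, and leaving out mitochondrial and muscle transcripts.

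The members, lists and naming rule were chosen with earlier results of these data known. Values per library are given for up to 8 called members a comparison with the largest changes (at least 5 CPM in the higher group, groups not overlapping), members called in both Con A against WT and FMT-Con A against Con A, the 6 members with the highest mean FPKM, and, for the enzyme groups, the further tested members. Partner genes named are the 3 with the lowest p per list and comparison, and Nr1i3, Nr1i2, Ahr and Nfe2l2. Not every gene this rule takes is given. Some genes that the counts include are not reported here.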

Additional observations from a re-analysis of the deposited data

How the results depend on the processing

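No value in the report changed direction under an alternative while called. Counts of members called in Con A against WT stayed between 23 and 29 over the settings that leave out 1 library, and in FMT-Con A against WT between 23 and 32. Counts of genes called ran from 9937 to 12101 in Con A against WT and from 9060 to 11349 in FMT-Con A against WT over the same settings. The filter was applied anew in these settings, so their counts can include members that were below it with all libraries. Between FMT-Con A and Con A these settings gave 0 to 19 members and 664 to 4053 genes, against 7 members and 2981 genes with all libraries. In that comparison DESeq2 called 11 members, and no filter on low counts gave 12, including members below the filter. Fitting only the groups compared gave 2 members and 1156 genes in that comparison. Without FMT-Con A 1 and FMT-Con A 3 together it had 0 members and 99 genes, and FMT-Con A against WT had 6957 genes. The causes of these shifts were not tested, beyond the loss of samples. Size factors of another kind, and leaving out mitochondrial and skeletal muscle transcripts, called the same members in all 3 comparisons. Leaving out those transcripts does not remove reads of the members that came from muscle. Deviations of same-numbered libraries from their group means correlated at -0.22 to 0.34, not every one over 0.1, so the numbers are not taken as pairs. With the replicate number as a block 24 members were called in Con A against WT, 5 in FMT-Con A against Con A and 26 in FMT-Con A against WT. The block lost Akr1a1, then Akr1c13 and Aox1, and then Aldh1l1. About 10 counts a library limit Aldh1a2 and Aldh1l2, and the 13 members under the filter have no test.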

Other observations

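Transcription factors known to act on drug-metabolising and liver genes were read from a list of 22, all of them tested, of which 6 were higher and 13 lower in Con A against WT, where 63.4% of all tested genes were called. Nr1i3, the constitutive androstane receptor of hepatocytes, had 1.33, 1.66 and 1.68 CPM in FMT-Con A, 3.19, 1.55 and 2.07 CPM in Con A and 122, 129 and 138 CPM in WT. It fell after Con A (log2 fold change -5.84 with an SE of 0.24 and edgeR adjusted p = 1.57e-07) and in FMT-Con A against WT (log2 fold change -6.38 with an SE of 0.25 and edgeR adjusted p = 2.40e-07), with all injected libraries below all WT libraries. Nr1i2, the pregnane X receptor, fell after Con A (log2 fold change -0.70 with an SE of 0.22 and edgeR adjusted p = 0.017), as did Hlf, a PAR bZIP factor (log2 fold change -3.26 with an SE of 0.15 and edgeR adjusted p = 2.42e-07), and Nr0b2, the small heterodimer partner (log2 fold change -4.23 with an SE of 0.30 and edgeR adjusted p = 2.57e-06). The adjusted p of Nr1i2 ran from 0.00130 to 0.0611 over 16 settings, missing the threshold without Con A 1, Con A 3 or WT 1.

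Nfe2l2, the factor of the antioxidant response, had 66.4, 40.3 and 68.6 CPM in FMT-Con A, 193, 206 and 149 CPM in Con A and 89.5, 79.8 and 99.2 CPM in WT. The Con A libraries were highest and overlapped with neither of the other groups. Nfe2l2 rose after Con A (log2 fold change 1.03 with an SE of 0.21 and edgeR adjusted p = 0.00205) and was lower in FMT-Con A than in Con A (log2 fold change -1.64 with an SE of 0.22 and edgeR adjusted p = 0.00285). Ahr, the dioxin receptor, had 12.9, 29.7 and 12.9 CPM in FMT-Con A, 41.5, 32.2 and 42.4 CPM in Con A and 21.0, 20.8 and 15.3 CPM in WT, rose after Con A (log2 fold change 1.02 with an SE of 0.31 and edgeR adjusted p = 0.0144) and was lower in FMT-Con A than in Con A (log2 fold change -1.07 with an SE of 0.31 and edgeR adjusted p = 0.0409). Over 16 settings the adjusted p of Ahr in FMT-Con A against Con A ran from 0.00128 to 0.450, the highest without FMT-Con A 1 and 3 together, while that of Nfe2l2 stayed at or below 0.0303. The Ahr call was lost in 9 of the 16, among them leaving out any 1 library other than Con A 2 or FMT-Con A 2, and fitting only the groups compared. The rise of Ahr after Con A missed the threshold without WT 3 (edgeR adjusted p = 0.0639, the highest of 16 settings, the lowest being 0.000360). Foxa2, a hepatocyte factor, had 17.5, 16.3 and 18.7 CPM in FMT-Con A. It had 3.88, 6.31 and 5.47 CPM in Con A and 31.8, 37.5 and 49.9 CPM in WT, so FMT-Con A lay between. Foxa2 was the 1 regulator of the 22 that was higher in FMT-Con A than in Con A (log2 fold change 1.74 with an SE of 0.21 and edgeR adjusted p = 0.00218). In the same comparison 5 were lower, among them Nr3c1, the glucocorticoid receptor (log2 fold change -0.58 with an SE of 0.13 and edgeR adjusted p = 0.0172). Over all tested genes 16.8% were called in that comparison. Without FMT-Con A 1 and 3 the adjusted p was 0.0592 for Foxa2, the highest of 16 settings, and 0.147 for Nr3c1.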
